A study of Mus musculus with 2 samples.

Results

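The genes described here are 32 rapid-response genes: 22 immediate early genes (Fos, Fosb, Jun, Junb, Jund, Atf3, Egr1, Egr2, Egr3, Nr4a1, Nr4a2, Nr4a3, Ier2, Ier3, Ier5, Dusp1, Zfp36, Btg2, Socs3, Nfkbiz, Klf4 and Klf6) and 10 heat shock genes (Hspa1a, Hspa1b, Hspa8, Hsph1, Hsp90aa1, Hsp90ab1, Dnajb1, Dnaja1, Hspe1 and Hspd1). They were picked by symbol among the 56941 features of the count tables, and 32 of 32 were found. The cells were CD45+ selected cells from liver metastases of MC38-LM3b, a mouse colorectal cancer derivative, grown for 2 weeks after intrasplenic injection into C57BL/6 mice of 6 to 8 weeks. In the Ctrl group the injected tumor cells carried shScramble, a hairpin with no target, and in the KD group they carried shSLAMF3, a hairpin against the SLAM family receptor encoded by Ly9. The hairpin was in the tumor cells only, and the host immune cells did not carry it. Each group was 1 library pooled from 3 mice, and the lesions of both were minced, digested, strained and cleared of red cells before selection. There was therefore no replicate error and no test. The group, the pool of mice and the handling of each library cannot be told apart. Intervals are given at 95% and cover counting error alone.

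Immediate early genes are transcribed within minutes of a signal, without new protein synthesis, because their promoters are held ready for factors such as SRF, CREB and NF-kB. They encode AP-1, Egr and Nr4a transcription factors and the phosphatases and RNA-binding proteins that shut the response off again, and their mRNAs are short-lived. Heat shock genes are switched on by HSF1, which is released when unfolded proteins occupy the chaperones that hold it, and they encode the Hsp70, Hsp90, J protein and chaperonin machinery. Both programs are used by activated leukocytes in tissue, and both also respond to warming, enzyme digestion and other handling of cells.

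After filtering, 9814 Ctrl cells and 10185 KD cells remained, with median depths of 5411.5 and 4989 UMIs. Levels are given as CPM, counts per 1e6 UMIs of the same class of cells in the same library, and one UMI stands for one captured 3' end, so levels were not scaled by gene length. Cells were sorted into 10 classes by clusters made without the 32 genes, as macrophages with monocytes, Kupffer cells, cDC, pDC, granulocytes, T cells, B cells, endothelial cells, tumor cells or fibroblasts, and a cluster with NK genes that also held Lef1 and Tcf7 T cells. The last is called the NK gene cluster. Macrophages numbered 4120 in Ctrl and 3095 in KD, T cells 2952 and 1534, and granulocytes 778 and 2221. Kupffer cells were the fewest in Ctrl, with 49 cells there and 83 in KD. Markers of cells outside the CD45+ gate were present, since 150 and 646 endothelial cells and 161 and 95 tumor cells or fibroblasts were found. Granulocyte markers were higher in KD in every other class, from 63.5 to 824 CPM in T cells and from 289 to 2046 CPM in macrophages, and the mean mitochondrial share was 1.95% in Ctrl and 2.27% in KD. Over all filtered cells Ly9 was at 20.99 CPM in Ctrl and 18.8 CPM in KD. 27 cell barcodes were shared by the libraries.

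The promoters are shown first, because the genes within each program are known to be driven by a few short elements. RefSeq promoter windows (GRCm38.p6, 250 bases before to 50 after each start) were at hand for 25 of the 32 genes; Egr1, Egr3, Ier2, Nfkbiz, Hspa8, Hsp90aa1 and Hsp90ab1 had no window here. The files themselves use another build and give no coordinates. The heat shock element is the site of HSF1. Its three-unit form, searched as GAANNTTCNNGAA or TTCNNGAANNTTC on both strands, was in 0.603% of all 32851 windows and in those of Hsph1, Hspe1 and Hspd1. The two-unit form (GAANNTTC or TTCNNGAA), which the three-unit form contains, was in 15.1% of all windows and also in those of Hspa1a, Hspa1b, Dnaja1, Jun and Egr2. The CRE, the CREB site TGACGTCA, was in 1.79% of windows and in those of Dusp1 and Btg2. The CArG box, the site of SRF, was in 1.63% of windows and in those of Egr2 and Zfp36. The AP-1 site TGANTCA was in 7.81% of windows and in 0 of the members' windows. A match is only a match of letters.

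The stretches below hold these matches in capitals, 5' to 3' on the strand of each gene. Hspa1a lies at chr17:34972212-34972301 and Hspa1b at chr17:34959294-34959383, both on the minus strand, and the capitals mark the two-unit heat shock element. The printed stretch was the same in both genes, and 296 of 300 bases of their windows were identical. Their transcripts are near-identical too, so reads can be split between them and their sum is given beside each.
Hspa1a: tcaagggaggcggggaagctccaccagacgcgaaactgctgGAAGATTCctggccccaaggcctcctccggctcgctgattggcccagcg
Hspa1b: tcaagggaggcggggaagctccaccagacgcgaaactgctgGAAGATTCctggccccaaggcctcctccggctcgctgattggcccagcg

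Hspe1 (chr1:55088023-55088112, plus strand) has 2 overlapping three-unit elements, which fuse into one run of capitals. The same bases (chr1:55088059-55088076) lie in a window of Hspd1, which is read from the opposite strand, so that 1 stretch stands for both chaperonin genes.
Hspe1: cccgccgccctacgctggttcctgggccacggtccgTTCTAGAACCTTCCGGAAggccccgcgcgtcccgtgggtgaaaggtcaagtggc

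For the immediate early genes the capitals mark a CArG box of Egr2 (chr10:67537454-67537543, plus strand) and Zfp36 (chr7:28379237-28379326, minus strand) and the CRE of Dusp1 (chr17:26508567-26508656, minus strand) and Btg2 (chr1:134079273-134079362, minus strand).
Egr2: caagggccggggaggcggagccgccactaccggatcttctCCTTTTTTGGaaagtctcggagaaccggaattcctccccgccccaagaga
Zfp36: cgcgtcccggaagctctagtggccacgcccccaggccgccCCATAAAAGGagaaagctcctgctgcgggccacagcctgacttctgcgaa
Dusp1: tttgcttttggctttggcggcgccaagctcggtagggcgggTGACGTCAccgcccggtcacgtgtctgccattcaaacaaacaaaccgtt
Btg2: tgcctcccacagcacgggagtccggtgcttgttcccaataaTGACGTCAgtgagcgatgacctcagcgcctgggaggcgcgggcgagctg

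The 2 programs were spread differently over the cell classes. Granulocytes had the highest immediate early sum in both libraries, 19306 CPM in Ctrl and 12438 CPM in KD, and the lowest heat shock sum, 1354 and 950 CPM. T cells stood at the other end in Ctrl, with the lowest immediate early sum (4502 CPM) and a heat shock sum of 9534 CPM. The highest heat shock sum was that of pDC, 12993 CPM in Ctrl and 10058 CPM in KD, followed by B cells with 10621 and 8934 CPM. Macrophages lay between, with 9155 and 8864 CPM of immediate early UMIs and 7021 and 5316 CPM of heat shock UMIs. In Ctrl the counting intervals of Kupffer cells and macrophages overlapped in the immediate early sum, as did those of the NK gene cluster and B cells, while every other neighbor in the order was apart. The heat shock order had no overlapping neighbors in Ctrl and 1 such pair in KD, cDC and the NK gene cluster.

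**Figure D1:**
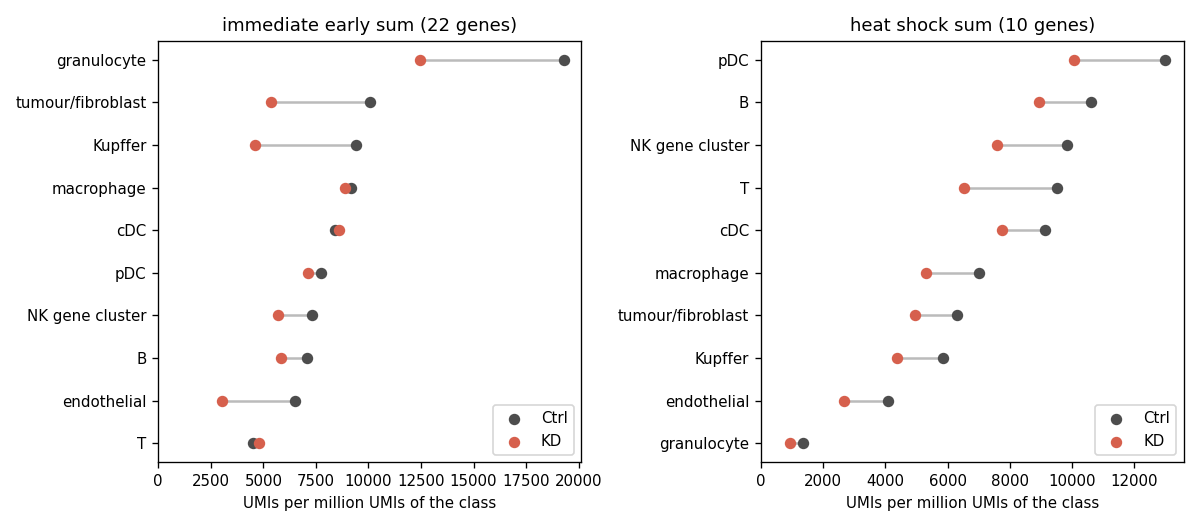
Summed UMIs of the 22 immediate early genes (left) and the 10 heat shock genes (right) as CPM of each class, with 1 point per library (gray, Ctrl; red, KD) and classes in the order of their Ctrl level. Every heat shock point of KD lies left of its Ctrl point, from 1354 to 950 CPM in granulocytes up to 12993 to 10058 CPM in pDC, while the immediate early points of T cells and cDC lie slightly to the right in KD.

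Which member carried a sum differed by class. Junb took 20.7% of the immediate early UMIs of Ctrl granulocytes and 15.1% of those of Ctrl macrophages, whereas Jund took 24.8% in Ctrl T cells, 24.96% in Ctrl B cells and 25.6% in Ctrl pDC. The second largest share in Ctrl T cells was Nr4a2, with 16.7%. Among heat shock genes the constitutive Hsp90ab1 led in macrophages (22.2%) and T cells (23.2%) of Ctrl, and the inducible Hspa1b led in B cells (27.0%) and the NK gene cluster (26.85%) of Ctrl.

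Between libraries, the heat shock sum was lower in KD in 10 of 10 classes and the immediate early sum in 8 of 10. The log2 ratio of KD over Ctrl for the heat shock sum was -0.40 (-0.41 to -0.39) in macrophages, -0.55 (-0.56 to -0.54) in T cells and -0.51 (-0.58 to -0.44) in granulocytes, and its extremes were -0.62 (-0.67 to -0.57) in endothelial cells and -0.24 (-0.26 to -0.22) in cDC. The immediate early sum was far less even. It was lower in endothelial cells (6525 against 3044 CPM, -1.10, -1.14 to -1.06), Kupffer cells (9417 against 4623 CPM, -1.03, -1.10 to -0.96), tumor cells or fibroblasts (10063 against 5347 CPM, -0.91, -0.95 to -0.87) and granulocytes (-0.63, -0.65 to -0.62). In T cells it was slightly higher in KD (4502 against 4776 CPM, 0.08, 0.07 to 0.10), but the sign turned in the clusters that hold most T cells, to -0.10 in cluster 1 and -0.024 in cluster 5. In macrophages it was nearly level (-0.05, -0.06 to -0.04), with a sign that turned when TMM factors replaced total UMIs (0.0065) or clusters were made at resolution 1.0 (0.080).

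Counts of genes that differed by at least 1.5-fold put the members beside all genes of a class with at least 200 UMIs. In macrophages 32 of 32 members had that many UMIs, 7 were at least 1.5-fold lower in KD and 0 higher, where 7.14% of all 10048 genes were lower and 4.59% higher. T cells had 31 such members, of which 8 were lower and 1 higher, against 2.49% and 3.35% of 9382 genes. Of the 28 members with enough UMIs in granulocytes, 16 were lower and 0 higher, in a class where 13.9% of 3958 genes were lower and 18.3% higher. In endothelial cells 29 members were counted, 21 lower and 0 higher, against 6.51% and 6.18% of 4820 genes. Kupffer cells gave 21 members, 13 lower and 0 higher, against 9.91% and 6.36% of 817 genes. The median log2 ratio of the counted members was -0.18 in macrophages, -0.06 in T cells, -0.61 in granulocytes, -0.84 in endothelial cells and -0.75 in Kupffer cells, and that of all counted genes was -0.03, -0.03, 0.14, -0.02 and -0.11. With likely doublets left out, 6 of 14 Kupffer members were lower and 1 higher, and 10 of 17 endothelial members were lower. In cDC 1 of 32 members was lower and 0 higher, against 3.75% and 3.32% of 5144 genes, so the members' share there was near that of all genes, with a median log2 ratio of -0.0056. In pDC 2 of 19 were lower and 1 higher, against 6.53% and 2.4% of 750 genes. B cells had 4 lower and 0 higher of 27, against 2.88% and 1.39% of 2743 genes, and the NK gene cluster 6 lower and 0 higher of 29, against 3.59% and 1.46% of 3700 genes. Tumor cells or fibroblasts had 17 lower and 0 higher of 28, against 12.5% and 4.67% of 3107 genes. The members were chosen with earlier results of these data known.

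Values of other kinds moved with the libraries in some of these classes. KD Kupffer cells held 4325 CPM of the 5 red cell markers against 2.35 CPM in Ctrl, and KD endothelial cells 487 against 2.61 CPM. In KD against Ctrl, granulocyte markers were at 2843 against 117 CPM in Kupffer cells and at 1572 against 28.7 CPM in endothelial cells, and mean mitochondrial shares were 2.97% against 1.71% and 2.63% against 1.86%. Their part in the results was not tested.

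**Figure D2:**
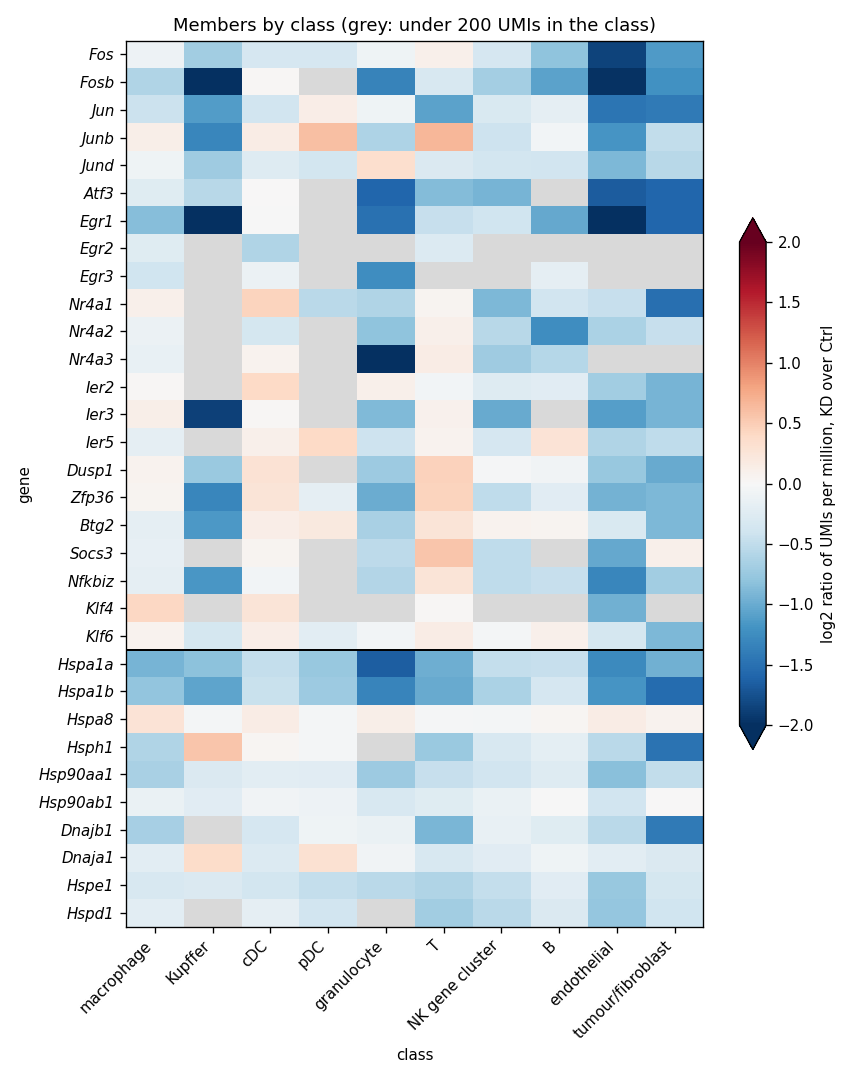
Log2 ratio of CPM, KD over Ctrl, for each of the 32 genes (rows; immediate early genes above the line, heat shock genes below) in each class (columns), with blue for lower and red for higher in KD and gray for genes with under 200 UMIs in the class. Hspa1a and Hspa1b are blue in all 10 classes, Hspa8 is pale throughout, and Junb runs from -1.31 in Kupffer cells to 0.66 in T cells.

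The AP-1 genes encode the leucine zipper factors that pair into AP-1. Fosb, one of the briefest of them, was lower in KD beyond counting error in 9 of 10 classes, with a median log2 ratio of -1.14 over classes. Its level was 254 CPM in Ctrl and 167 CPM in KD macrophages, 206 and 81.5 CPM in granulocytes, and 135 and 34.5 CPM in endothelial cells (-1.97, -2.30 to -1.64). The exception among the classes was cDC, with 233 and 238 CPM. Within macrophage clusters 0, 4 and 12 the Fosb ratio was -0.38, -0.25 and -0.73. In macrophage cluster 3 the Fosb interval held 0 (107.7 and 110.5 CPM, 0.04, -0.18 to 0.26). Within granulocyte clusters 2 and 8 the Fosb ratio was -0.97 and -1.59. Fos itself differed less in the large classes taken whole. It was at 910 and 846 CPM in macrophages (-0.11, -0.13 to -0.08), and its interval held 0 in granulocytes (547 and 514 CPM, -0.19 to 0.01) and in T cells (86.5 and 92.97 CPM, -0.01 to 0.21). Within macrophage clusters Fos was lower in cluster 0 (-0.24, -0.28 to -0.21) and cluster 4 (-0.87, -1.03 to -0.72) and higher in cluster 3 (0.47, 0.39 to 0.56). In cluster 12 the Fos interval held 0 (-0.08, -0.19 to 0.03). The widest gap of Fos among the classes was in endothelial cells, 516 against 142 CPM (-1.86, -2.02 to -1.69).

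Jun was lower in 7 of 10 classes and its interval held 0 in the other 3. T cells held 214 and 102 CPM (-1.07, -1.17 to -0.98), macrophages 379 and 281 CPM (-0.43, -0.48 to -0.39), and tumor cells or fibroblasts, where Jun was highest in Ctrl, 1182 and 445 CPM (-1.41, -1.54 to -1.28). Atf3, an AP-1 partner induced by many stresses, was lower in 9 of 10 classes, at 385 against 128 CPM in granulocytes (-1.59, -1.73 to -1.44), 37.3 against 20.6 CPM in T cells (-0.86, -1.08 to -0.65) and 338 against 287 CPM in macrophages (-0.24, -0.28 to -0.19). In cDC it was level, 308.3 and 308.5 CPM. Within granulocyte clusters 2 and 8 the Atf3 ratio was nearer 0 than in the class, at -0.98 (-1.15 to -0.82) and -0.73 (-1.21 to -0.21).

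Junb was lower in 5 classes and higher in 4, and the direction split by cell type. It was higher in KD T cells, 577 against 911 CPM (0.66, 0.62 to 0.70), and in KD pDC (374 against 564 CPM, 0.60, 0.31 to 0.88), and macrophages and cDC were slightly higher (1382 and 1493 CPM, and 1217 and 1354 CPM). Within T cell clusters 1, 5 and 10 the Junb ratio was 0.10, 0.33 and 0.66. Of the macrophage clusters, Junb was lower in cluster 0 (-0.14) and higher in cluster 3 (0.09), and its interval held 0 in clusters 4 and 12. Granulocytes, which had by far the most Junb, were lower, 3992 against 2601 CPM (-0.62, -0.66 to -0.58). Within the 2 main granulocyte clusters the Junb ratio was nearer 0, at -0.20 (-0.25 to -0.15) in cluster 2 and -0.086 in cluster 8, where the interval held 0 (-0.20 to 0.03). Endothelial cells (978 against 432 CPM) and Kupffer cells (1198 against 483 CPM, -1.31, -1.52 to -1.10) were lower too. Jund, which restrains AP-1 at rest, was lower in 9 classes, from -0.09 in macrophages to -0.90 in endothelial cells, for example 1115 against 914 CPM in T cells (-0.29, -0.32 to -0.25), and higher in granulocytes, 984 against 1240 CPM (0.33, 0.26 to 0.41).

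Granulocyte markers were higher in KD in every class besides granulocytes, whether Junb was higher or lower there. Where Junb was higher they were at 63.5 and 824 CPM in T cells, 289 and 2046 CPM in macrophages, 38.8 and 1299 CPM in pDC and 64.7 and 630 CPM in cDC. Where Junb was lower they were, for example, at 117 and 2843 CPM in Kupffer cells and 28.7 and 1572 CPM in endothelial cells. Their part in the Junb values was not tested.

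The Egr genes encode zinc finger factors that SRF and its partners switch on. Egr1 was lower in 9 of 10 classes, with a median log2 ratio of -1.26. Its levels were 689 CPM in Ctrl and 245 CPM in KD granulocytes (-1.49, -1.60 to -1.39), 109 and 60.7 CPM in macrophages (-0.85, -0.94 to -0.75), 50.2 and 36.7 CPM in T cells (-0.45, -0.62 to -0.29), and 392 and 60.4 CPM in endothelial cells (-2.70, -2.92 to -2.47). In cDC its interval held 0, at 44.7 and 44.3 CPM. Within clusters the Egr1 values spread widely. In granulocytes the ratio was -0.71 (-0.82 to -0.59) in cluster 2 and its interval held 0 in cluster 8 (-0.37, -0.79 to 0.07). Of the macrophage clusters, it was lower in cluster 0 (-1.14, -1.27 to -1.02) and cluster 12 (-0.67, -1.04 to -0.31), and its interval held 0 in cluster 3 (0.29, -0.01 to 0.59) and cluster 4 (-0.19, -0.55 to 0.16). Egr2 was scarce, at most 71.25 CPM in Ctrl, and was lower in 5 classes, among them macrophages (71.25 against 60.0 CPM, -0.25, -0.35 to -0.15) and granulocytes (34.4 against 11.7 CPM, -1.55, -2.04 to -1.06). Egr3 was highest in B cells, at 166 and 146 CPM with an interval that held 0 (-0.48 to 0.11), and was lower in 4 classes, among them granulocytes, 144 against 60.6 CPM (-1.25, -1.47 to -1.02). The 3 Egr genes summed were lower in 10 of 10 classes, from -0.24 (-0.42 to -0.06) in cDC to -2.59 (-2.81 to -2.38) in endothelial cells.

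The Nr4a genes encode orphan nuclear receptors, induced by antigen receptor signals in lymphocytes. Nr4a3 had the widest gap of any member in granulocytes, 597 CPM in Ctrl against 105 CPM in KD (-2.51, -2.65 to -2.38). Within granulocyte clusters 2 and 8 its ratio was nearer 0, at -1.78 (-1.94 to -1.62) and -2.1 (-2.5 to -1.69). In T cells as a class Nr4a3 was slightly higher in KD (193 and 214 CPM, 0.15, 0.08 to 0.22), as was Nr4a2 (752 and 806 CPM, 0.10, 0.06 to 0.14), the member that T cells held at a higher level than any other class. The Nr4a3 interval held 0 within T cell clusters 1 (-0.11, -0.23 to 0.01), 5 (-0.02, -0.15 to 0.11) and 10 (0.12, -0.04 to 0.28). For Nr4a2 and the Nr4a sum only the class was compared, and the makeup of the T cell class differed between libraries. Nr4a2 was lower in B cells, 159 against 67.2 CPM (-1.24, -1.58 to -0.90), and in the NK gene cluster, 527 against 358 CPM (-0.56, -0.69 to -0.42). Nr4a1 was lower in 7 classes and higher in 2, with 487 and 322 CPM in granulocytes (-0.60, -0.71 to -0.48), 421 and 324 CPM in B cells (-0.38, -0.56 to -0.19) and 104 and 108 CPM in T cells, where its interval held 0 (-0.05 to 0.15). The Nr4a sum was lower in B cells (-0.57, -0.71 to -0.43) and in the NK gene cluster (-0.67, -0.76 to -0.58) and higher in T cells (0.10, 0.07 to 0.14), and the difference between these classes was not tested.

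Ier2, Ier3 and Ier5 are small early response genes, and Ier3 limits NF-kB and cell death signals. Ier3 was highest in granulocytes, 1544 and 835 CPM (-0.89, -0.95 to -0.82), and lower also in Kupffer cells (373 and 102 CPM, -1.86, -2.31 to -1.44), but slightly higher in KD macrophages (742 and 806 CPM, 0.12, 0.09 to 0.15). Ier2 had intervals that held 0 in macrophages (167 and 170 CPM, -0.04 to 0.09), T cells (148 and 142 CPM, -0.15 to 0.03) and granulocytes (268 and 288 CPM, -0.04 to 0.25). Ier5 was lower in granulocytes, 588 against 441 CPM (-0.41, -0.51 to -0.31), and in macrophages, 296 against 262 CPM (-0.17, -0.22 to -0.13), and its interval held 0 in T cells (97.3 and 102 CPM).

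The feedback regulators end the response. Dusp1 dephosphorylates MAP kinases, Zfp36 destroys AU-rich cytokine mRNAs, Btg2 recruits deadenylases, Socs3 blocks cytokine receptors and Nfkbiz modifies NF-kB targets. Granulocytes had the most of the first 3 and less in KD: Dusp1 was at 2566 and 1545 CPM (-0.73, -0.78 to -0.68), Zfp36 at 2295 and 1151 CPM (-0.996, -1.05 to -0.94) and Btg2 at 1661 and 1063 CPM (-0.64, -0.70 to -0.58). T cells went the other way for all 5: Dusp1 was at 194 and 266 CPM (0.46, 0.39 to 0.53), Zfp36 at 84.1 and 115 CPM (0.45, 0.35 to 0.55), Btg2 at 239 and 285 CPM (0.26, 0.19 to 0.32), Socs3 at 23.8 and 34.9 CPM (0.55, 0.36 to 0.74) and Nfkbiz at 108 and 129 CPM (0.25, 0.16 to 0.34). Macrophages were close to level, with Dusp1 at 661 and 690 CPM and Zfp36 at 797 and 831 CPM. The sum of the 5 genes had log2 ratios of 0.36 (0.32 to 0.39) in T cells, -0.04 (-0.06 to -0.03) in macrophages, which is less than the shift of 0.053 that TMM factors brought there, -0.75 (-0.78 to -0.72) in granulocytes and -0.89 (-0.97 to -0.82) in endothelial cells. These 5 genes were compared by class only, and makeup differed between libraries. The immediate early sum, which includes them, was at -0.24 and -0.19 in granulocyte clusters 2 and 8, against -0.63 in the class. In T cell clusters 1, 5 and 10 that sum was at -0.10, -0.02 and 0.12, against 0.08 in the class.

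Of the Klf factors, Klf6 had an interval that held 0 in granulocytes (674 and 648 CPM, -0.06, -0.15 to 0.03) and near level in macrophages (488 and 515 CPM, 0.08, 0.04 to 0.11). Klf4, which marks monocyte differentiation and quiescent endothelium, was higher in KD macrophages (108 and 143 CPM, 0.41, 0.34 to 0.48) and lower in endothelial cells (134 and 69.2 CPM, -0.95, -1.24 to -0.66).

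Hspa1a and Hspa1b encode the Hsp70 that is made on demand, and both were lower in KD beyond counting error in 10 of 10 classes. Hspa1a was at 1340 CPM in Ctrl and 707 CPM in KD macrophages (-0.92, -0.95 to -0.90), 1301 and 663 CPM in T cells (-0.97, -1.01 to -0.94), and 202 and 64.7 CPM in granulocytes (-1.64, -1.84 to -1.44). Hspa1b was at 1411 and 813 CPM in macrophages (-0.80, -0.82 to -0.77), 1799 and 895 CPM in T cells (-1.01, -1.04 to -0.98), and 195 and 78.3 CPM in granulocytes (-1.31, -1.51 to -1.12). B cells and pDC had the highest levels in Ctrl, and B cells the narrowest gap: the summed pair was at 5230 and 3999 CPM in B cells (-0.39, -0.44 to -0.33) and at 5690 and 3390 CPM in pDC (-0.75, -0.84 to -0.66).

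Being lower in every class was rare among all genes. Of 391 genes with at least 200 UMIs in each of the 10 classes, 6 (1.53%) were lower in KD beyond the counting interval in all 10, and 2 of them were Hspa1a and Hspa1b. The other 4 genes, named because they are few and chosen after their values were seen, were Irf1, Tapbp, Rpl27 and Gm10076. By point value alone, 19 genes (4.86%) were lower in all 10 classes, among them Hsp90aa1 and Hspe1 beside the Hspa1 pair. 14 of the 32 members were among the 391 genes.

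Hspa8 encodes the constitutive Hsp70, which shares most of its protein sequence and function with the inducible form. It was not lower in any class beyond counting error. In macrophages it was at 815 and 986 CPM (0.27, 0.25 to 0.30), cDC 1034 and 1143 CPM (0.14, 0.08 to 0.21), T cells 820 and 809 CPM (-0.06 to 0.02) and granulocytes 198 and 214 CPM (-0.06 to 0.28). The ratios of Hspa8 thus ran from -0.05 to 0.27 over the classes, apart from those of the Hspa1 pair, which ran from -1.47 to -0.39. Hsph1, the Hsp110 exchange factor of Hsp70, was lower in T cells (634 and 381 CPM, -0.73, -0.78 to -0.69), macrophages (265 and 174 CPM, -0.60, -0.66 to -0.55) and tumor cells or fibroblasts (489 and 175 CPM, -1.48, -1.69 to -1.27), and higher in Kupffer cells (181 and 265 CPM, 0.55, 0.15 to 0.96).

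**Figure D3:**
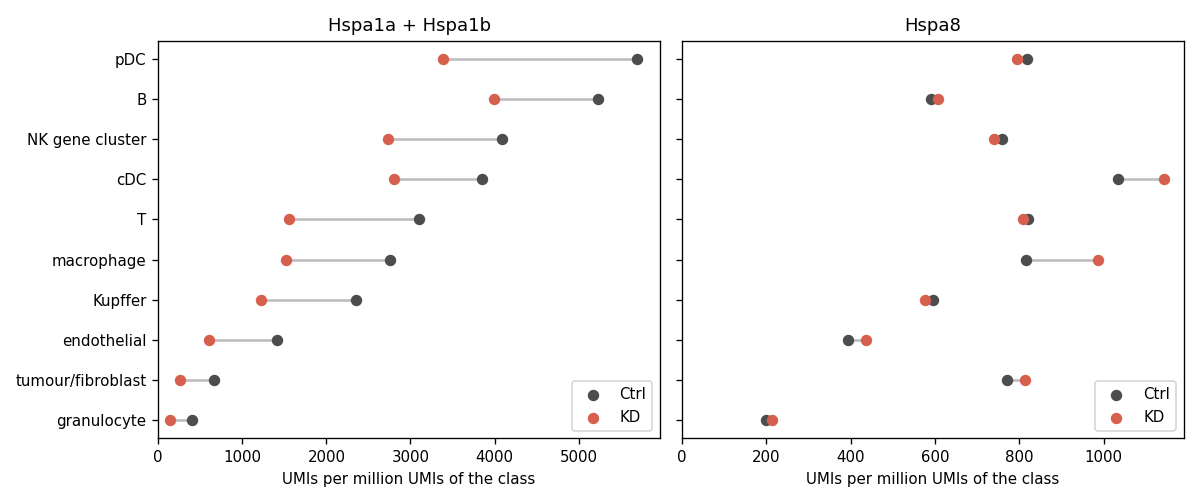
CPM of the inducible pair Hspa1a plus Hspa1b (left) and of the constitutive Hspa8 (right) in each class, with 1 point per library (gray, Ctrl; red, KD). The pair is lower in KD in all 10 classes, at 2751 and 1521 CPM in macrophages and 3101 and 1558 CPM in T cells, while the Hspa8 points lie close together, with macrophages (815 and 986 CPM) the farthest apart in ratio.

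Hsp90 also has an inducible and a constitutive form. The inducible Hsp90aa1 was lower in 9 of 10 classes, with 649 and 413 CPM in macrophages (-0.65, -0.69 to -0.62), 911 and 661 CPM in T cells (-0.46, -0.50 to -0.42) and 209 and 127 CPM in granulocytes (-0.72, -0.89 to -0.54). The constitutive Hsp90ab1 was at 1561 and 1429 CPM in macrophages (-0.13, -0.15 to -0.11) and 2214 and 1881 CPM in T cells (-0.24, -0.26 to -0.21), and its interval held 0 in pDC (1970 and 1833 CPM), B cells (1438 and 1435 CPM) and tumor cells or fibroblasts (2178 and 2196 CPM).

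The J proteins hand substrates to Hsp70. Dnajb1 was at 138 and 87.1 CPM in macrophages (-0.66, -0.74 to -0.59), 289 and 154 CPM in T cells (-0.91, -0.98 to -0.83) and 62.2 and 56.8 CPM in granulocytes, where its interval held 0 (-0.43 to 0.18). Within macrophage clusters 0, 3, 4 and 12 the Dnajb1 ratio was -0.39, -0.29, -0.62 and -0.66. Dnaja1 differed less, with 315 and 273 CPM in macrophages (-0.20, -0.25 to -0.16) and 406 and 326 CPM in T cells (-0.32, -0.37 to -0.26), and was higher in pDC (506 and 626 CPM, 0.31, 0.05 to 0.56) and Kupffer cells (244 and 315 CPM, 0.37, 0.02 to 0.73).

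Hspe1 and Hspd1 encode the cochaperonin and chaperonin of mitochondria, and share the promoter printed above. T cells had the most of Hspd1 in Ctrl and B cells in KD (305 CPM), and in T cells both genes were lower in KD: Hspe1 was at 689 and 456 CPM (-0.60, -0.64 to -0.55) and Hspd1 at 470 and 290 CPM (-0.70, -0.75 to -0.64). In macrophages they were at 368 and 296 CPM (-0.31, -0.36 to -0.27) and at 159 and 137 CPM (-0.21, -0.28 to -0.15). The pair's sum was lower in 10 of 10 classes, from -0.24 in B cells to -0.76 in endothelial cells.

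The number of cells with a UMI was counted after each cell was thinned to 1500 UMIs so that depth was equal. Hspa1a was found in 56.0% (54.4 to 57.6%) of 3824 Ctrl macrophages and in 39.9% (38.1 to 41.7%) of 2951 KD macrophages, and without thinning in 72.1% and 59.2%. In T cells the shares were 54.1% (52.3 to 55.9%) of 2903 cells and 34.3% (31.9 to 36.7%) of 1516, and 70.8% and 49.8% without thinning. Granulocytes had 16.5% (13.7 to 19.6%) of 654 cells and 7.51% (6.40 to 8.74%) of 2038. Not every class had fewer such cells in KD: Hspa1b was found in 52.5% (41.0 to 63.8%) of 80 Ctrl and 66.2% (53.7 to 77.2%) of 68 KD pDC, with intervals that overlap, while its level was lower in KD pDC. In B cells and the NK gene cluster the intervals of the Hspa1b shares also overlapped (54.8% and 54.2%, and 60.4% and 55.8%). For comparison, Cd3e, a T cell gene, was found in 0.785% and 0.271% of thinned macrophages, and S100a8, a granulocyte gene, in 2.07% and 10.3% of thinned T cells, where median depth before thinning was 7084 and 5800.5 UMIs. Egr1 was found in 48.0% (44.1 to 51.9%) of Ctrl and 22.5% (20.7 to 24.4%) of KD granulocytes, and Junb in 48.1% (46.3 to 49.9%) of Ctrl and 58.1% (55.5 to 60.6%) of KD T cells. Thinning left out 745 Ctrl cells and 593 KD cells under 1500 UMIs.

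Within a class the inducible Hsp70s were uneven from cell to cell. At 1500 UMIs, 30.7% of Ctrl macrophages had no Hspa1a or Hspa1b UMI while 10.8% had 11 to 20 and 3.50% over 20. In KD macrophages those shares were 45.7%, 4.202% and 0.779%. T cells had none in 29.4% of Ctrl and 52.8% of KD cells. The 90th percentile was 13 UMIs in Ctrl and 7 in KD macrophages and was 12 and 9 in T cells, so both the cells without the pair and the cells rich in it differed. B cells had none in 36.8% of Ctrl and 38.1% of KD cells and over 20 UMIs in 16.3% and 10.2%: there the libraries differed mainly in the cells with most.

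**Figure D4:**
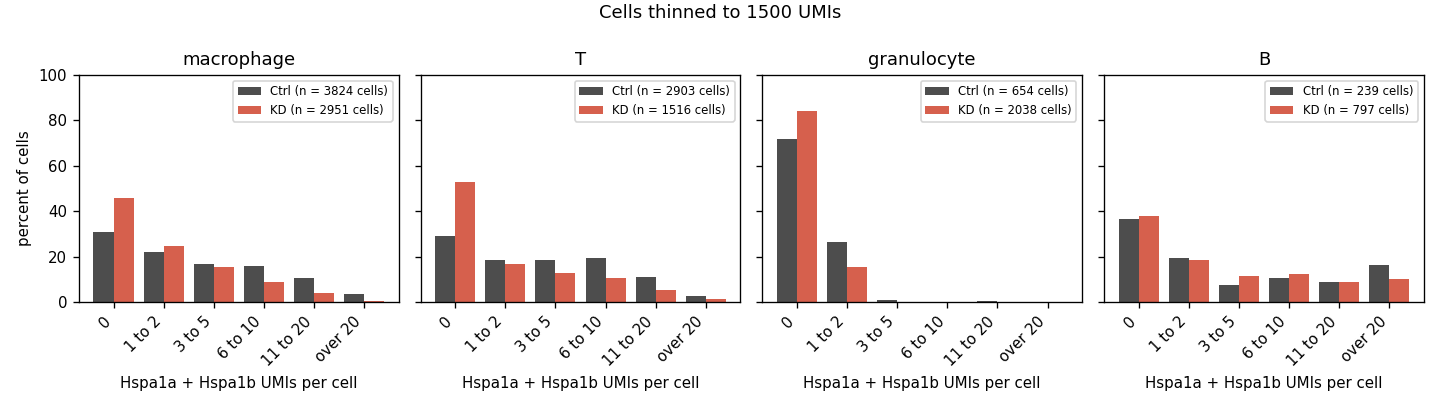
Percent of cells (bars; gray, Ctrl; red, KD) by the number of Hspa1a plus Hspa1b UMIs per cell, after thinning to 1500 UMIs, in macrophages, T cells, granulocytes and B cells. KD macrophages and T cells have more cells without a UMI (45.7% and 52.8%, against 30.7% and 29.4% in Ctrl), whereas B cells differ mostly in the share over 20 UMIs (16.3% against 10.2%).

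Across single cells the members went together only in part. Hspa1a and Hspa1b had a Pearson r of 0.64 over 3824 Ctrl macrophages and 0.62 over 2903 Ctrl T cells, and Hspa1b and Hsph1 one of 0.39 in Ctrl T cells. Hspa1b and Hspa8 were at 0.16 in Ctrl macrophages, and Fos and Jun at 0.20. The immediate early and heat shock sums had an r of 0.51 in Ctrl and 0.16 in KD macrophages (2951 cells), and of 0.34 and 0.17 in T cells. In B cells it was 0.33 in Ctrl and 0.32 in KD. These are descriptions over cells of 1 library, at equal depth, with no test.

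Classes can hold different clusters in each library, so the sums were also set side by side within clusters, for the 17 that held 50 cells or more from each library. The Hspa1 pair was lower in KD beyond counting error in 16 of 17 clusters and the heat shock sum in 15. The pair's ratio ran from -1.38 to -0.29, the latter in macrophage cluster 12, and the interval held 0 only in granulocyte cluster 8 (132 and 96.0 CPM, with 78 Ctrl and 997 KD cells). Fosb was lower in 15 clusters and higher in 0, Atf3 in 13 and 0, Egr1 in 11 and 0, and Hspa8 in 0 and 5. Junb was lower in 5 and higher in 8. Single members given in this text without a cluster value or count were compared by class only.

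The granulocyte class differed most in its makeup. Its cluster 2, led by Hcar2, Acod1 and Csf1, held 670 of the 778 Ctrl cells, and KD was divided between cluster 2 (1039 cells) and cluster 8 (997 cells), led by Retnlg and Stfa2l1. The immediate early sum was at 22342 and 18887 CPM in cluster 2 (-0.24, -0.26 to -0.22) and at 12430 and 10867 CPM in cluster 8 (-0.19, -0.25 to -0.14), so the class ratio of -0.63 was farther from 0 than that within either cluster. The heat shock sum was at 1441 and 1074 CPM in cluster 2 (-0.42, -0.51 to -0.34), and in cluster 8 its interval held 0 (782 and 792 CPM, -0.19 to 0.23). The class ratio of the Hspa1 pair, -1.47, was also farther from 0 than that of cluster 2 (-1.25) and cluster 8 (-0.46).

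Makeup differed in macrophages and T cells too. Macrophage cluster 3 held 341 of 4120 Ctrl and 1175 of 3095 KD cells. T cell cluster 10 held 348 of 2952 Ctrl and 526 of 1534 KD cells. In both classes the class ratio of the immediate early sum lay inside the range of its clusters. For the Hspa1 pair this held in T cells (-0.99, against -1.28, -1.19 and -0.59 in clusters 1, 5 and 10). In macrophages the pair's class ratio of -0.86 was farther from 0 than that of every cluster compared. Those ratios were -0.79, -0.77, -0.58 and -0.29 in clusters 0, 3, 4 and 12. Of the macrophage clusters, cluster 0, led by Cxcl9 and C1q genes, had an immediate early sum of 10062 and 8396 CPM (-0.26, -0.27 to -0.25), and cluster 3, with monocyte genes and most of its cells in KD, one of 10120 and 10103 CPM (-0.02 to 0.02). In T cells the higher Junb of KD was at 1217 and 1916 CPM (0.66) in the Cd4-rich cluster 10, at 487 and 612 CPM (0.33) in the cycling cluster 5 and at 580 and 621 CPM (0.10) in cluster 1, which is led by Ccl5 and Prf1. The class ratio of Junb, 0.66, was thus met in cluster 10 and farther from 0 than that of clusters 5 and 1. The immediate early sum was lower in KD T cells with Cd8 and without Cd4 UMIs (4410 and 4158 CPM, -0.08, -0.10 to -0.07; 2475 and 885 cells) and higher in those with Cd4 and without Cd8 UMIs (5376 and 6393 CPM, 0.25, 0.20 to 0.30; 156 and 378 cells). The Hspa1 pair was lower in both, at 3079 and 1271 CPM (-1.28, -1.31 to -1.25) and 3248 and 2199 CPM (-0.56, -0.63 to -0.50).

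**Figure D5:**
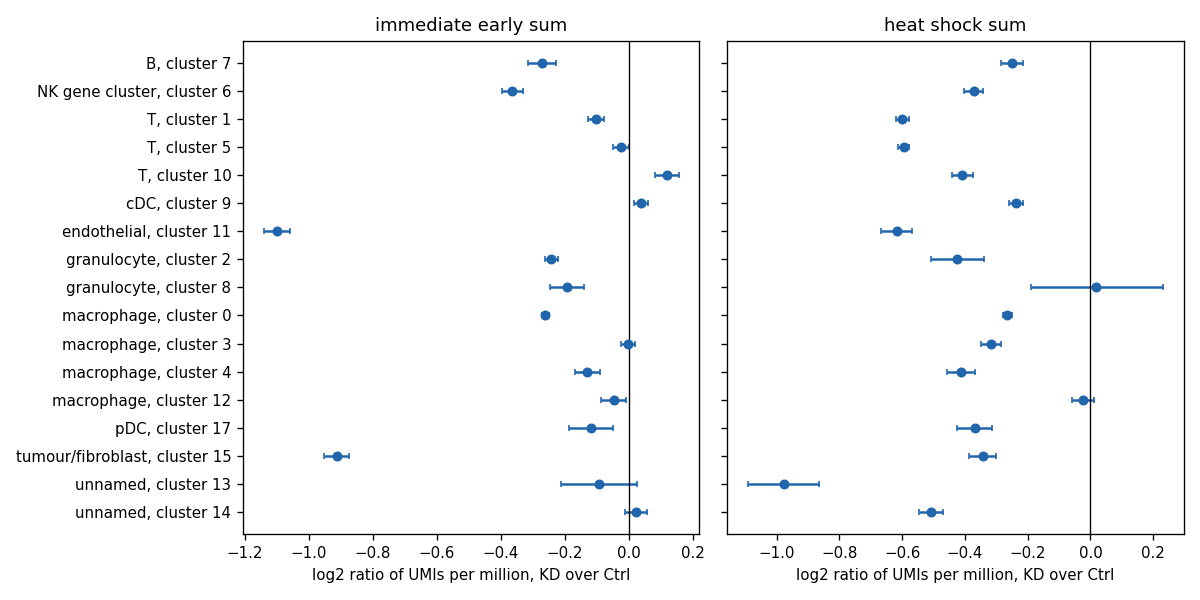
Log2 ratio of CPM, KD over Ctrl, of the immediate early sum (left) and heat shock sum (right) within each of 17 clusters that held 50 cells or more from each library, with points for the ratio and bars for its 95% counting interval. The heat shock interval lies below 0 in 15 clusters and holds 0 in macrophage cluster 12 and granulocyte cluster 8, while the immediate early sum spreads from -1.10 in endothelial cells to 0.12 in T cell cluster 10.

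The Hspa1 pair was lower in KD within each split by cycling markers and by mitochondrial share. In T cells with at least 2 of 7 cycling markers it was at 3004 and 1247 CPM (-1.27, -1.30 to -1.23), and in the others at 3309 and 2008 CPM (-0.72, -0.76 to -0.69). Among macrophages split by mitochondrial share, the ratio was -0.79 (-0.83 to -0.75) under 1%, -0.92 (-0.94 to -0.89) from 1 to 2%, -1.03 (-1.07 to -0.99) from 2 to 4% and -0.37 (-0.46 to -0.28) from 4 to 10%. The 544 Ctrl and 713 KD barcodes that the filter dropped for over 10% mitochondrial UMIs held less of the pair than the kept cells of their library, 1600 against 2868 CPM in Ctrl and 898 against 1556 CPM in KD. With mitochondrial UMIs left out of the total the gaps were narrower, 1937 against 2912 CPM in Ctrl and 1145 against 1586 CPM in KD. The dropped barcodes were not sorted into classes.

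Related genes, from lists fixed alongside the members, partly shared their directions. Counts in these lists are of genes beyond counting error, which takes in many genes: 23.8% of all 9382 genes were lower and 18.1% higher in T cells, 30.8% and 24.9% of 10048 in macrophages, and 24.2% and 36.2% of 3958 in granulocytes. Of 24 further heat shock genes and cochaperones, 23 had enough UMIs in T cells, 18 were lower and 0 higher, and the median log2 ratio was -0.16. The lowest were Hspb1, a small heat shock protein (41.9 and 3.64 CPM, -3.53, -4.02 to -3.07), and Bag3, an HSF1 target that unloads Hsp70 (115 and 51.5 CPM, -1.16, -1.30 to -1.03). Macrophages had 10 lower and 4 higher of 23, with Bag3 lowest (128 and 79.4 CPM, -0.69, -0.77 to -0.61) and the chaperonin subunit Cct5 highest (87.4 and 113 CPM, 0.37, 0.29 to 0.45). In granulocytes 11 were counted, 3 lower and 2 higher, with Hspa4l, an Hsp110, lowest (238 and 60.3 CPM, -1.98, -2.18 to -1.79). Hsf1 itself was at 20.3 and 20.4 CPM in T cells (-0.23 to 0.24).

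Of 30 further immediate early genes the directions also split by class. T cells had 17 higher and 4 lower of 27 counted, led by Klf2 (62.9 and 131 CPM, 1.06, 0.96 to 1.17) and Id3 (10.3 and 21.1 CPM, 1.04, 0.77 to 1.30). Granulocytes had 18 lower and 6 higher of 27, with Maff (227 and 76.0 CPM, -1.58, -1.77 to -1.40) and Csrnp1 (459 and 162 CPM, -1.50, -1.63 to -1.37) lowest and Klf2 highest (392 and 938 CPM, 1.26, 1.15 to 1.37). Macrophages had 17 lower and 8 higher of 29, with Dusp2 lowest (218 and 134 CPM, -0.71, -0.77 to -0.64) and Id3 highest (145 and 280 CPM, 0.95, 0.89 to 1.01). Genes of the unfolded protein response in the endoplasmic reticulum, another arm of protein stress, were divided in macrophages, with 5 lower and 5 higher of 14, near the shares of all genes, a median of -0.02, Creld2 lowest (29.3 and 23.9 CPM, -0.30) and Xbp1 highest (99.9 and 131 CPM, 0.39). In T cells 8 were lower and 1 higher of 14, with Calr lowest (293 and 216 CPM, -0.44, -0.50 to -0.37).

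Of 13 regulators upstream of both programs, 3 were lower and 3 higher in macrophages and 2 lower and 4 higher in T cells, counts that do not set the list apart from all genes. Crem, a CREB family factor that is itself induced, was lowest in macrophages (92.0 and 65.3 CPM, -0.49, -0.59 to -0.40) and in granulocytes (125 and 52.8 CPM, -1.25, -1.486 to -1.005), where Nfkb1 was next (743 and 341 CPM, -1.12, -1.22 to -1.03). In T cells Nfkb1 was highest of the list (241 and 309 CPM, 0.36, 0.30 to 0.42).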

How the data were processed

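The 2 libraries were 10x 3' v3.1 gene counts. The deposited count matrices were made by the authors with Cell Ranger 7.1.0 on GRCm39, per the submitters' processing notes, and hold whole UMI counts. The study's filter (at least 200 genes, at most 10% mitochondrial UMIs, 30000 UMIs and 6000 genes) kept 19999 of 21359 barcodes, not exactly the number that the study states. Clusters were made with Seurat 5.3.0 (R 4.3.3) from 2000 variable genes without the members and pathway lists, 20 principal components and resolution 0.5, with no integration; a class needed 3 markers, and monocyte cells were joined to macrophages. 427 Ctrl and 248 KD cells stayed in unnamed clusters. No doublet caller was run; leaving out cells with 3 markers of another class was an alternative. UMIs were summed per class. Levels have exact Poisson intervals, ratios exact conditional binomial intervals and shares Clopper-Pearson intervals (scipy 1.17.1), for counting error only. edgeR 4.0.16 gave TMM factors as an alternative, and other alternatives are named in the closing section. Interval and ratio code was tested on simulated data. All 32 members are named, and at most 2 lowest and 2 highest genes per pathway list and class. The members and lists were chosen with earlier results of these data known. Promoter sequences come from RefSeq (GRCm38.p6), a build other than that of the files.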

Additional observations from a re-analysis of the deposited data

Results flagged for a closer look

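Junb had opposite directions in different classes: its log2 ratio of KD over Ctrl was -1.31 in Kupffer cells and 0.66 in T cells, both at least 1.5-fold and beyond counting error, with 1 library per group, and the difference between classes was not tested. Within T cell clusters the Junb ratio was 0.10 (0.03 to 0.16) in cluster 1, 0.33 (0.26 to 0.40) in cluster 5 and 0.66 (0.58 to 0.73) in cluster 10. Only cluster 10 was at least 1.5-fold.

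Junb was also higher in KD in cluster 13, a group of 266 Ctrl and 87 KD cells with few UMIs and 4 T cell markers that stayed unnamed and entered no class, with 352 and 569 CPM and a log2 ratio of 0.69.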

How the results depend on the processing

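No paired analysis was possible because each group had 1 library. Over all alternatives, 101 of 102 values of the heat shock sum and 81 of 102 of the immediate early sum were below 0; the cause of the changes was not tested. TMM factors moved the ratios by 0.11 at most, in tumor cells or fibroblasts.

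The log2 ratio of the immediate early sum in macrophages (-0.047) turned to 0.0065 with TMM factors and 0.080 at resolution 1.0, and was -0.056 with the stricter cell filter (500 genes, 5% mitochondrial), -0.099 when thinned, -0.074 as a mean over cells, -0.055 with classes from single cells, -0.12 without cycling cells, -0.077 without Junb, and -0.26, -0.0026 and -0.13 in clusters 0, 3 and 4. In granulocytes (-0.63) it was -0.59 with TMM factors, -0.50 when thinned, -0.55 as a mean over cells, -0.58 with classes from single cells, -0.62 with the members among the variable genes, -0.56 without likely doublets, and -0.24 and -0.19 in clusters 2 and 8. In T cells (0.085) it was 0.13 when thinned, as a mean over cells, without likely doublets and without cycling cells, 0.19 without Jund, 0.12 in cluster 10, and turned to -0.10 in cluster 1 and -0.024 in cluster 5. In cDC (0.037) it turned to -0.035 when thinned. Without likely doublets it was -0.70 in place of -1.03 in Kupffer cells and -0.91 in place of -1.10 in endothelial cells. At resolution 1.0 a cluster led by Lef1 and Tcf7 was named T cells, apart from the NK genes. The immediate early sum of the NK gene cluster was then -0.20 in place of -0.36.

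For the heat shock sum in macrophages (-0.40) the values were -0.35 with TMM factors, -0.43 when thinned, -0.45 as a mean over cells, -0.37 with classes from single cells, -0.39 at resolution 1.0 and without likely doublets, -0.44 without cycling cells, -0.49 without Hsp90ab1, and -0.26, -0.32 and -0.023 in clusters 0, 3 and 12. In granulocytes (-0.51) they were -0.40 when thinned, -0.42 as a mean over cells, -0.16 with classes from single cells, -0.41 with the members among the variable genes, -0.33 at resolution 1.0, -0.34 without likely doublets, -0.65 without Hspa8, -0.42 in cluster 2 and 0.018 in cluster 8. In T cells (-0.55) they were -0.48 when thinned and as a mean over cells, -0.52 with classes from single cells, -0.53 at resolution 1.0, -0.47 without cycling cells, -0.66 without Hsp90ab1, and -0.60, -0.60 and -0.41 in clusters 1, 5 and 10. Without likely doublets the heat shock sum was -0.19 in place of -0.42 in Kupffer cells, -0.12 in place of -0.37 in pDC and -0.45 in place of -0.62 in endothelial cells. For the NK gene cluster it was -0.15 at resolution 1.0 in place of -0.37.

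Members at least 1.5-fold lower numbered 7 in macrophages, 16 in granulocytes and 8 in T cells, and at 2-fold 0, 7 and 2. In granulocytes they were 10 when thinned, with classes from single cells and without likely doublets, and in T cells 5 when thinned. Members higher in T cells (1) became 3 when thinned and without likely doublets, 2 as a mean over cells and at resolution 1.0, and 0 at 2-fold; in macrophages (0) there was 1 at resolution 1.0. Leaving out likely doublets gave 6 of 14 in place of 13 of 21 Kupffer members lower and 10 of 17 in place of 21 of 29 in endothelial cells, and thinning left 1 and 11 members counted there, 0 and 9 of them lower. Without thinning, the difference in the share of cells with a UMI, KD minus Ctrl, was -12.9 in place of -16.1 points for Hspa1a in macrophages, 2.88 in place of 0.391 for Junb in macrophages, -2.40 in place of -6.72 for Junb in granulocytes, -8.64 in place of -1.87 for Egr1 in T cells and 3.33 in place of 9.96 for Junb in T cells.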
